A study of Mus musculus with 22 samples.

Results

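Coronal fractions 4, 5 and 6 are 3 adjacent slabs from the middle of the brain of 1 mouse, and they are described here against the other 7 slabs of that brain. They are 3 of the 22 samples of a study by Transcriptome Tomography, which slices a whole brain along 1 axis and reads the RNA of each slab, or fraction, on 1 microarray. There were 10 coronal fractions from 1 mouse, and 6 horizontal and 6 sagittal fractions from 1 further mouse each, all of them untreated C57BL/6J males. The sample titles place the mice at postnatal day 7 and the age field at 3 days. The members were chosen by fraction number alone, with fractions 1-3 and fractions 7-10 as the 2 sides. Coronal fraction 10 pooled slabs 10 and 11, and no label names the end from which the numbering starts. Sagittal fraction 1 pooled 2 slabs and sagittal fraction 6 pooled 3. By the data, 16 of 19 tested genes of a hindbrain list, most of them Hox genes, were highest in fraction 1, and 11 of 12 tested genes of an olfactory bulb list were highest in fraction 10.

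The midbrain and the diencephalon form the core of the brain between the hindbrain and the forebrain. The ventral midbrain holds dopamine neurons, which make dopamine with tyrosine hydroxylase (Th) and take it back up through the dopamine transporter (Slc6a3). The raphe nuclei at the border of midbrain and hindbrain hold serotonin neurons, which depend on tryptophan hydroxylase 2 (Tph2). The hypothalamus, the ventral diencephalon, holds small populations that each make their own peptide, such as orexin (Hcrt) and melanin-concentrating hormone (Pmch) in its lateral area. The thalamus, in the dorsal diencephalon, is marked by the transcription factor Tcf7l2. A coronal slab through these levels also contains the cortex and hippocampus that lie above them.

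A short sequence stands at about the same place in the promoters of 3 of the 6 markers, so the 80 bases just before the RefSeq transcription start are shown for these and for Slc6a3, which lacks it. Sequences are from RefSeq promoters on GRCm38.p6, read 5′ to 3′ on the gene's strand, and capitals mark TATAAA, the letters of a TATA box.
Hcrt, orexin, chr11:100762932-100763011, minus strand: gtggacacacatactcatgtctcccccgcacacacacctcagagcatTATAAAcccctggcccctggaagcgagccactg
Pmch, melanin-concentrating hormone, chr10:88090992-88091071, plus strand: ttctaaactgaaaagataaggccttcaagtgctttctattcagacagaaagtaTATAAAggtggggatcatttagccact
Tph2, serotonin synthesis, chr10:115185023-115185102, minus strand: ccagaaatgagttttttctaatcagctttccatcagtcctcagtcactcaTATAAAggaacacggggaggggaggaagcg
Slc6a3, dopamine transporter, chr13:73536667-73536746, plus strand: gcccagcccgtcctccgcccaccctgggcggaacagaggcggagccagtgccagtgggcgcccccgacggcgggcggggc
TATAAA began 33 bases before the start in Hcrt, 27 bases before it in Pmch and 30 bases before it in Tph2. Of 32851 mouse promoters in the table, 1.99% held TATAAA on the gene's strand between 40 and 16 bases before the start, and 13.6% held it on either strand anywhere in the 300-base promoter. The Slc6a3 stretch was 81.2% G and C against a median of 55.0% over all promoters, and it held no TATAAA on either strand. The stretches before Th and before both Tcf7l2 starts did not hold it in that window. A match is a description of these letters and not a measured site.

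Levels are given as log2 of the background-subtracted spot intensity minus the 75th percentile of that array, so 0 is the 75th percentile and 1 unit is a doubling. A gene was read from its probe with the highest median over the coronal arrays, and a probe counted as detected where the scanner software marked it well above background. The rule kept 20325 RefSeq probes detected in at least 2 of fractions 4-6, which named 14905 genes, out of 22980 probes and 16680 genes tested. A gene that is low in these fractions can fail this filter, so counts over the 14905 genes lean towards genes that are high there. Each fraction was measured on 1 array, and adjacent slabs of 1 brain stand in for replicates, so p-values measure the spread between slabs and hold no spread between animals. In a bulk slab, fewer cells of a type and less RNA per cell cannot be told apart. On the coronal arrays 29625 to 40191 probes were detected, and the slope of the added spike-in RNA lay outside the accepted range on fractions 1 and 2 (0.815 to 0.867) and inside it on the other 8 (0.950 to 1.07). Fractions 4-6 were all in range and all on slide 1, which also held fractions 1, 3, 7 and 8. Fraction 2 was on a slide of its own among the coronal arrays, and fractions 9 and 10 shared another.

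The markers did not fill the 3 fractions evenly. Of the dopamine and serotonin markers, Slc6a3 and Tph2 had their highest levels in fractions 4 and 5, and the lateral hypothalamic peptides had theirs in fraction 6. Slc6a3 was 2.85 in fraction 4, 3.30 in fraction 5 and -0.80 in fraction 6. On one side it was -2.80, -3.70 and -2.60 in fractions 1, 2 and 3, and on the other -1.37, -1.18, -0.65 and -0.37 in fractions 7 to 10. Fractions 4 and 5 thus stood over 3 units above every other coronal fraction, while fraction 6 lay among fractions 7-10. Th was 3.27 and 2.83 in fractions 4 and 5, 1.15 in fraction 6, between -0.14 and 1.74 in fractions 1-3 and between 1.05 and 1.91 in fractions 7-9. Its highest level was 4.55 in fraction 10, the fraction in which the olfactory bulb list peaked, so Th alone did not set fractions 4-6 apart. Tph2 was dim. It was -1.58 in fraction 4, -2.31 in fraction 5, between -3.87 and -2.99 in fractions 1-3, and not well above background in fractions 6 to 10.

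Hcrt was 3.47 in fraction 6. It was -1.85 and -1.15 in fractions 4 and 5, between -2.88 and -1.85 in fractions 1-3, and between -0.93 and -0.55 in fractions 7-10. Fraction 6 was 4.02 units above the next highest fraction, and no other member gene had a larger step in 1 of the 3 fractions. Pmch was 3.56 in fraction 6 and -0.05 in fraction 5, and it was not well above background in fraction 4. In fractions 1-3 it was between -4.52 and -3.84, and in fractions 7-10 between -2.22 and -1.16. Both peptides were highest in the same slab. Tcf7l2 formed a broader hill, with 0.66, 1.73 and 2.24 in fractions 4, 5 and 6, 0.84 in fraction 3 and 1.04 in fraction 7. It was -1.58 and -1.94 in fractions 1 and 2 and between -2.46 and -1.17 in fractions 8-10. Its fractions 4-6 overlapped both sides, because fraction 4 lay below fractions 3 and 7. Another Tcf7l2 probe followed the first (Pearson r of 0.89 over the 10 arrays), and the remaining one stayed between -1.67 and -0.98.

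**Figure D1:**
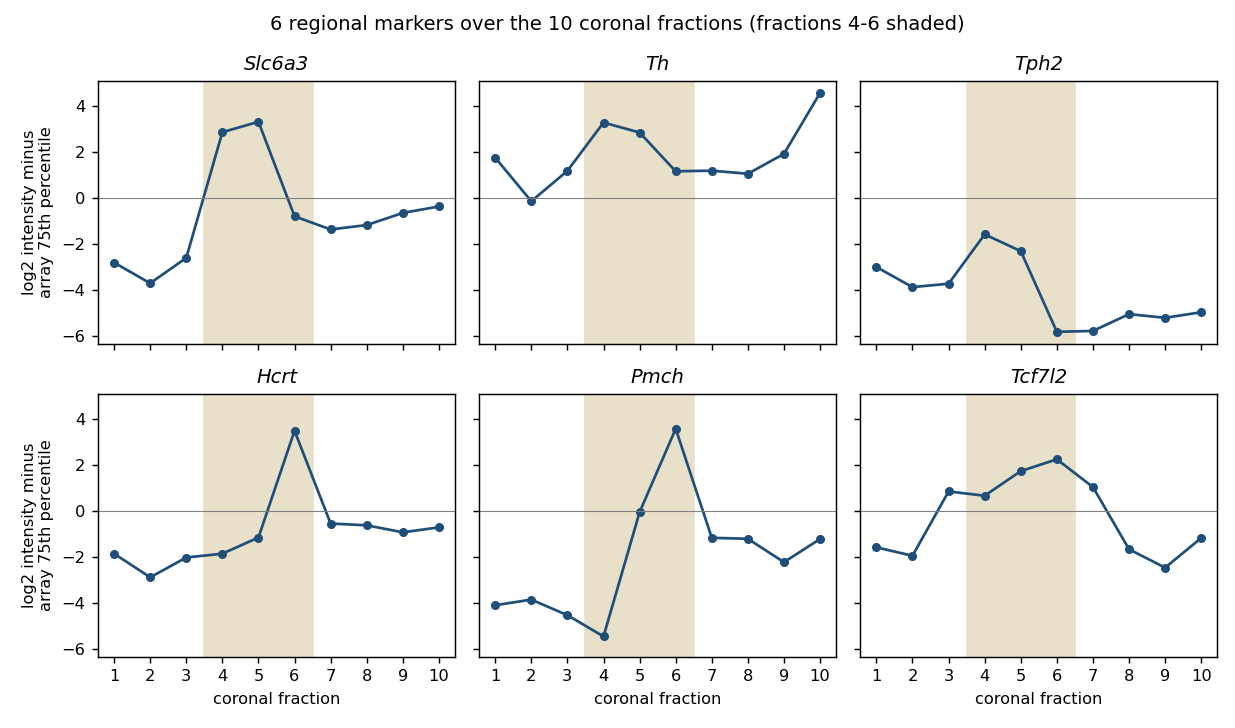
Level of 6 regional markers (log2 intensity minus the array's 75th percentile, vertical axis) in each of the 10 coronal fractions (horizontal axis), with fractions 4-6 shaded and 1 point per array, dim points included. Slc6a3 is high in fractions 4 and 5, Hcrt and Pmch highest in fraction 6, and Th is highest in fraction 10.

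All 6 marker means were higher over fractions 4-6 than over the other 7 fractions, but none passed a test after adjustment. The difference was 3.59 for Slc6a3, 2.53 for Tcf7l2, 1.96 for Pmch, 1.52 for Hcrt and 0.78 for Th. For Pmch and Hcrt the direction rested on fraction 6 alone, and without that fraction both differences turned negative. Tph2 was detected in 5 of the 10 fractions, fractions 1-5, so its mean rests partly on dim readings and no exact difference or p is given for it. The two-sided exact permutation test over all 120 choices of 3 of the 10 fractions gave p = 0.025 for Slc6a3 and p = 0.0333 for Tcf7l2, and the exact p was 0.233 for Hcrt, 0.317 for Pmch and 0.450 for Th. Adjusted over the 6 markers, the lowest exact p was 0.0999. The smallest p this exact test can give is 0.00833. Since the markers came with the choice of these fractions, their levels describe the slabs and are not independent evidence about them.

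The mean levels of the midbrain and raphe lists were highest in fraction 4, but some of their genes were highest in fractions 1-3. Over all 16680 tested genes, 7.21% were highest in fraction 4. Of the midbrain dopamine neuron list 9 of 20 tested genes were highest there, of the serotonin neuron list 7 of 12 and of the midbrain and tectum factor list 9 of 22. In fractions 1, 2 and 3 the tectum list had 1, 6 and 3 genes at their highest, En2, Otx2, Lhx1, Lhx5 and Irx1 among them. The dopamine list had 2 and 3 in fractions 1 and 2, and the serotonin list 2 in fraction 2. Over all tested genes 1104, 2334 and 3476 were highest in fractions 1, 2 and 3. The lists share genes such as Ddc, which makes both amines. Slc6a4, the serotonin transporter, was 1.31 in fraction 4, -1.48 in fraction 5 and -0.74 in fraction 6. It was -1.79, -2.24 and -1.05 in fractions 1-3 and between -3.22 and -2.64 in fractions 7-10, so fraction 4 stood alone. Fev, a transcription factor of serotonin neurons, was -1.32 in fraction 4 and at most -2.90 in any other. Pou4f2, a POU factor found in the tectum and in retinal ganglion cells, was 0.94 in fraction 4, -0.97 in fraction 5 and -4.29 in fraction 6. It was between -2.80 and -0.57 in fractions 1-3 and not well above background in fractions 7-10. Ddc was 3.27 in fraction 4 and 2.54 in fraction 1, so it was nearly as high at the hindbrain end.

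Genes of other cells also peaked in fraction 4. Of the meninges list 9 of 11 genes were highest there, and the mean level of the list was 2.76 in fraction 4, against 2.03 and 1.43 in fractions 5 and 6, 1.15 to 1.68 in fractions 1-3 and 1.08 to 2.43 in fractions 7-10. Col1a1, a fibrillar collagen, was 3.83 in fraction 4, 3.53 and 2.90 in fractions 5 and 6, and between 1.69 and 2.32 in fractions 1-3. Prx, which encodes a protein of peripheral nerve myelin, was 1.39 in fraction 4 and at most -0.16 elsewhere. Cyp2f2, a cytochrome P450, was -0.46 in fraction 4 and at most -2.81 elsewhere. Slc6a12, a betaine and GABA transporter, was 1.37 in fraction 4 and at most -0.64 elsewhere. The part of meninges and nerve in the fraction 4 levels was not tested. Of the pineal list no gene was highest in fractions 4-6, and Aanat, the enzyme of melatonin synthesis, stayed between -0.64 and 0.70 in all 10 fractions.

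Fraction 5 shared several high midbrain genes with fraction 4. In 7 of the 16680 tested genes both fractions 4 and 5 stood more than 1 unit above all other 8, and 6 of them were on the dopamine or the tectum list. These were Slc6a3, Chrna6, Foxa1, Foxa2, Gata3 and Pax7, and the remaining gene was Fut1, a fucosyltransferase. They were picked for this pattern, so their levels are a description. Foxa2, a forkhead factor of the floor plate and of dopamine neurons, was -0.986 in fraction 4 and -1.004 in fraction 5 and not well above background in the other 8. Over fractions 4 and 5 it was at least 13.3-fold above the other 7 fractions, taking each dim array at its lowest detected signal or at its own value where that was higher. Chrna6, a nicotinic receptor subunit of dopamine neurons, was 0.41 and 0.49 in fractions 4 and 5 and at most -1.97 elsewhere. Gata3, a factor of midbrain GABA and of serotonin neurons, was 1.17 and 0.71 there and at most -0.73 elsewhere. Pax7, a factor of the dorsal midbrain, was -1.24 and -2.19 there, at most -3.60 in fractions 1-3 and not well above background in fractions 6-10. The pair of fractions 5 and 6 was more often on top, with 1455 genes (8.72%) against 432 (2.59%) for fractions 4 and 5, but only 2 of those 1455, Pmch and the olfactory receptor gene Olfr1418, stood more than 1 unit above the rest.

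Over all tested genes 9.53% were highest in fraction 5. Foxa1, the paralogue of Foxa2, was 0.10 there, -1.51 in fraction 4 and -2.86 in fraction 6. Of the other 7 fractions it was detected in fraction 7 alone, at -4.45. Foxb1, a factor of the mammillary body, was 1.25 in fraction 5, -0.11 in fraction 4 and -0.99 in fraction 6. It was 0.04, -1.51 and -1.05 in fractions 1-3, -1.85 in fraction 7 and not well above background in fractions 8-10. Both factors thus had their summit in the same slab, with lower levels in both neighbours. Other genes with a large step in fraction 5 were Tmem220, Gm14151, Npffr1, Ccdc81 and Cntnap5c. Cntnap5c, a contactin-associated protein gene, was -1.82 in fraction 5, -4.51 in fraction 4 and not well above background elsewhere.

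Several hypothalamic peptides were highest in fraction 6. Of the 22 tested genes of the neuropeptide list 9 were highest in fraction 6, against 10.2% of all tested genes, while 1 was highest in fraction 4 and 1 in fraction 5. Npw, neuropeptide W, was 0.46 in fraction 6, -2.65 and -2.02 in fractions 4 and 5, and at most -2.44 elsewhere. Agrp, which drives feeding from the arcuate nucleus, was 0.27 in fraction 6 and at most -1.86 in any other. Ghrh, the releasing hormone for growth hormone, was 1.00 in fraction 6 and at most -0.98 in any other. Not every peptide on the list was highest there. Npy was 3.99 in fraction 6 and 4.32 in fraction 10, and Cartpt was highest in fraction 4, Gal in fraction 1 and Kiss1 in fraction 2. Avp and Oxt, the peptides of the posterior pituitary, spanned fractions 6 and 7 instead. Avp was 2.83 in fraction 6 and 2.53 in fraction 7, and at most -0.46 elsewhere. Oxt was 2.21 in fraction 6 and 3.11 in fraction 7, and at most -0.87 elsewhere. Sst, somatostatin, which is also made widely in the cortex, was between 5.55 and 5.66 in fractions 4-6 and between 3.02 and 5.55 in the others.

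The hypothalamic factor list was split. Of its 21 tested genes 1 was highest in fraction 4, 3 in fraction 5 and 1 in fraction 6. Those 5 of 21 stand beside 26.9% of all tested genes highest in fractions 4-6. In fractions 1, 2 and 3 there were 3, 5 and 3 genes at their highest, Barhl1, Lhx1, Lhx5 and Nr5a1 among them. The median difference over its members was 0.03 from the other 7 fractions. From fractions 1-3 it was -0.325, and 0.13 with quantile normalization. Nkx2-1, the factor that specifies the ventral hypothalamus, was -2.36 and -2.90 in fractions 5 and 6, -2.18 and -2.53 in fractions 7 and 8, and not well above background elsewhere. Fezf1, a factor of the ventromedial nucleus, was -1.57 in fraction 6, -1.67 in fraction 7 and not well above background elsewhere. Six6 was detected in fractions 5, 6 and 7 alone, at -2.38, -3.25 and -2.95. These 3 factors were at a like level in fraction 7, across the edge of fractions 4-6. Of the pituitary list, no probe of Prl, Tshb, Fshb, Pou1f1, Ghrhr or Tbx19 was detected in fractions 4-6, and Pomc stayed between 0.16 and 1.02 in all 10. The mean level of the choroid plexus list was 0.70 in fraction 6, -0.38 and -0.55 in fractions 4 and 5, 1.09 in fraction 7, 1.17 and 1.30 in fractions 2 and 3, and at most -0.80 in the others, and its part in the fraction 6 levels was not tested. Other genes high in fraction 6 alone include Misp, Smg8, Olfr1109 and Col20a1. Misp was -1.21 and at most -4.32 elsewhere, and Smg8 was 0.16 and at most -2.60 elsewhere. Col20a1 was 0.14 in fraction 6 and at most -3.02 elsewhere on 1 probe, while its other probe was -6.24 there. None of these single-fraction levels has a replicate check.

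The thalamus list had its summit in the same slab but a flatter course. Of 18 tested genes 7 were highest in fraction 6, none in fractions 4 or 5 and 3 in fraction 7. Slc17a6, the vesicular glutamate transporter of thalamus and midbrain, was 3.18, 3.26 and 3.32 in fractions 4-6. It was 2.92, 2.13 and 2.85 in fractions 1-3 and 2.53, 0.49, 1.29 and 1.45 in fractions 7-10, so fractions 4-6 lay above all other 7. The distance to fraction 1 was small. Lef1, a partner of Wnt signalling, was -0.17, -0.17 and 0.03 in fractions 4-6 and between -1.66 and -0.45 in the other 7. Lhx9, a LIM factor of the thalamus, was 1.41, 1.09 and 1.46 in fractions 4-6, but 1.18 and 1.07 in fractions 3 and 7. Gbx2, an early thalamic factor, was -0.14 in fraction 7, above its -3.80, -1.36 and -0.63 in fractions 4-6. Of the habenula list 4 of 14 genes were highest in fractions 4-6, beside 26.9% of all tested genes. Gpr151, a receptor of habenula neurons, was detected in fractions 6 and 7 alone and so failed the filter.

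**Figure D2:**
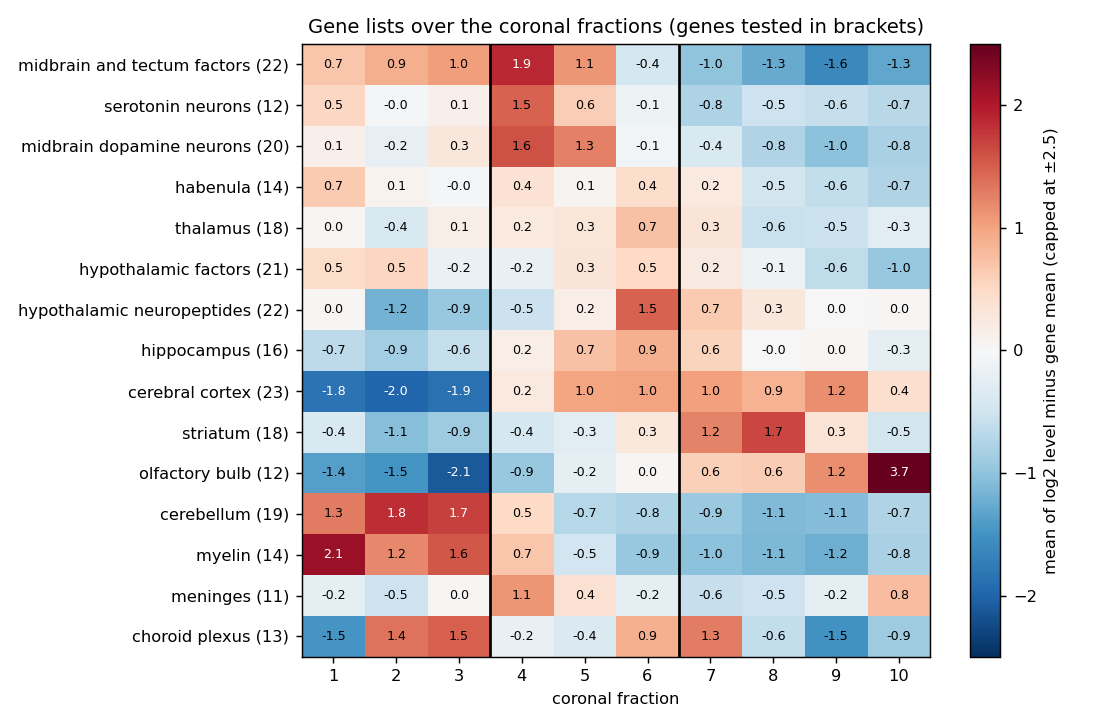
Mean over the tested genes of each list of the level minus that gene's own mean over the 10 coronal fractions (log2, colour and printed value), with fractions on the horizontal axis and black lines around fractions 4-6. Midbrain, serotonin and meninges lists peak in fraction 4 and the neuropeptide and thalamus lists in fraction 6, while the cortex list is low in fractions 1-3.

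Against the other 7 fractions as 1 group, no probe passed an adjusted p of 0.05 in limma, and the lowest adjusted p was 0.162. At an unadjusted p under 0.05 there were 2403 member genes higher and 771 lower, against 14.4% and 6.77% of all 16680 tested genes in the same directions. In 714 member genes all 3 fractions lay above all other 7, and in 181 all 3 lay below. Over all tested genes the shares without overlap were 4.28% higher and 1.62% lower, and all 714 higher genes passed the filter while 90 of the 271 lower genes did not. Most of these steps were small, with a median difference of 0.55 and with 619 of the 714 under 1 unit. Fraction 7 was the highest of the other 7 in 397 of the 714 and fraction 3 in 82.

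Among the genes without overlap and with the largest positive differences were Foxa1, Nr4a2, Kdf1, Wnt9b, Slc3a1, Tenm2, Fibcd1, Pde1a, Fam163a and Slc6a7. None of them passed the test against the other 7 fractions, with adjusted p between 0.162 and 0.182. Foxa1 was detected in fraction 7 alone of the other 7, so no exact difference is given for it. The difference was 2.35 ± 0.32 (SE) for Nr4a2, a nuclear receptor required by dopamine neurons and also on the habenula list. Nr4a2 was 3.34, 3.09 and 2.79 in fractions 4-6, -0.23, 0.15 and -0.06 in fractions 1-3, and 2.13, 1.36, 1.39 and 0.36 in fractions 7-10. Unlike Slc6a3 it was thus high in fraction 6 too, and its second probe had the same course (r of 0.99). Slc18a2, the vesicular monoamine transporter, was 0.88, 0.72 and 0.55 in fractions 4-6 and between -1.33 and -0.15 in the other 7, a difference of 1.52 (adjusted p 0.162). Tenm2, a teneurin of synapses, was 2.88, 3.49 and 3.08 against 0.48 to 2.52. Pde1a, a calcium-dependent phosphodiesterase, was 2.06, 3.12 and 2.84 against -0.34 to 1.91. Slc6a7, the brain proline transporter, was 1.74, 2.02 and 1.99 against -1.17 to 1.35. Fibcd1, a fibrinogen-domain receptor and a hippocampal marker on the lists, was -1.13, -0.36 and -1.24 against -3.06 to -2.12. Outside fractions 4-6 the highest level was in fraction 7 for Nr4a2, Tenm2, Pde1a and Slc6a7, and in fraction 3 for Slc18a2 and Fibcd1.

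**Figure D3:**
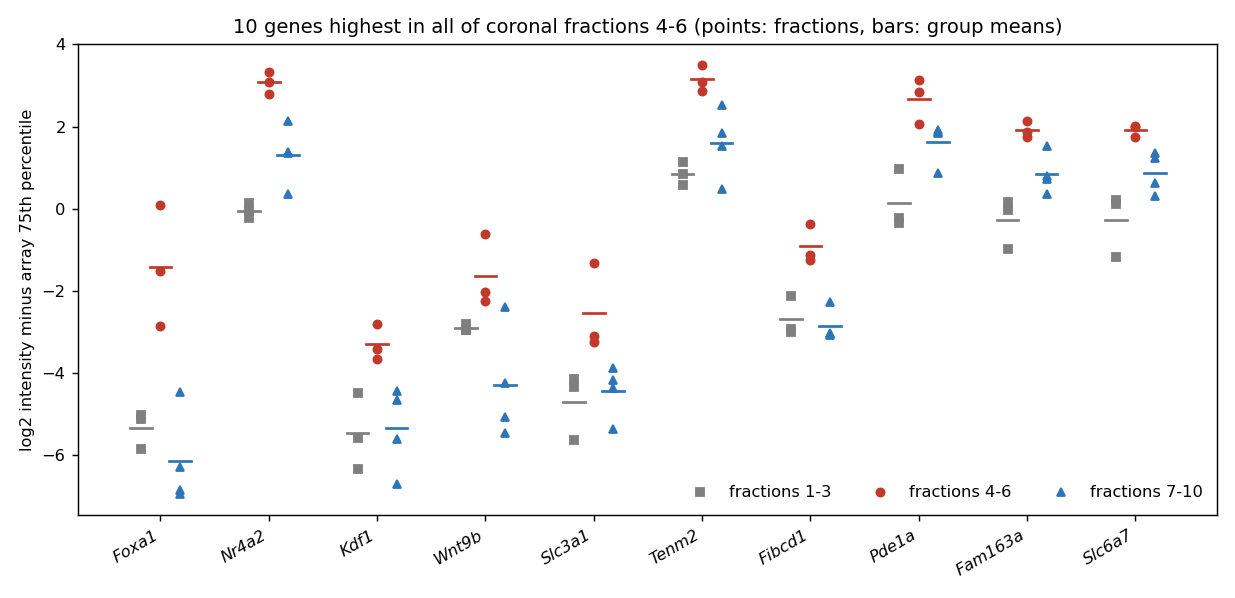
Level (log2 intensity minus the array's 75th percentile, vertical axis) of 10 genes with a large difference among those where fractions 4-6 all lie above the other 7 fractions, with points for single fractions and bars for group means. The genes were chosen for this separation. Foxa1, Slc3a1, Wnt9b and Pde1a spread by over 1 unit within fractions 4-6, while Slc6a7 spread by under 0.3.

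Among the dimmer of these genes Wnt9b, a Wnt ligand, was -2.03, -2.25 and -0.61 in fractions 4-6. It was between -2.96 and -2.79 in fractions 1-3, -2.38 in fraction 7 and not well above background in fractions 8-10. Slc3a1, a subunit of a cystine transporter, was -3.24, -1.31 and -3.09 in fractions 4-6 and at most -3.88 elsewhere, highest in fraction 5. Kdf1, a gene of keratinocyte differentiation, was between -3.66 and -2.79 in fractions 4-6, -4.49 in fraction 3, -4.42 in fraction 7 and not well above background in the other 5. Measured by the nearer side, Foxa1, Kdf1, Slc3a1 and Fibcd1 were among the genes furthest above both, and no gene passed the test on both sides.

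Genes lower in all 3 fractions than in the other 7 were led by Cabp5, Klra1, Mrgprg, Bhmt, Cmtm7, Fam166b, Hells and Odf3, and none passed the test (adjusted p between 0.169 and 0.250). Cabp5, a calcium-binding protein, was 0.36, 0.40 and 0.60 in fractions 4-6. It was 6.80 and 8.36 in fractions 1 and 2, 1.59 in fraction 3, 0.66 in fraction 7 and 4.59 in fraction 8. Klra1 was 3.02 and 3.98 in fractions 1 and 2 and -1.80 in fraction 3, and Mrgprg was 2.23 and 2.93 there and -1.92 in fraction 3. Cmtm7 was 3.13 and 5.68 in fractions 1 and 2 on the probe used and 0.08 and -0.63 on its other probe, which did not follow it (r of -0.31). The highest levels of Cabp5, Klra1 and Mrgprg, and of the Cmtm7 probe used in fraction 2, lay on the 2 arrays with a spike-in slope out of range, on which the dim spike-in probe a107 read 6.39 and 6.98 against 3.17 to 3.71 in fractions 4-6, and the part of that array difference in these genes was not tested. Bhmt, a betaine methyltransferase, was -4.31 and -3.74 in fractions 4 and 6, not well above background in fraction 5, -1.61, 0.13 and -2.16 in fractions 1-3, and between -3.26 and -1.66 in fractions 7-10. Fam166b was -3.73, -4.11 and -3.36 in fractions 4-6 and between -2.55 and -1.36 in the other 7. Hells, a chromatin remodeller of dividing cells, was -3.98 and -4.13 in fractions 4 and 5, not well above background in fraction 6 and between -3.81 and -1.71 in the other 7.

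Against fractions 1-3, 2189 member genes were higher and 804 lower with an adjusted p under 0.05 in limma. Of all tested genes 13.1% were called higher and 6.34% lower. Tbr1, a factor of cortical projection neurons, was 2.45, 3.33 and 3.61 against -3.02, -2.58 and -1.91, and rose by 5.64 ± 0.45 (adjusted p 0.00217). Dlx2, a factor of forebrain interneurons, was -1.74, 0.27 and 0.38 in fractions 4-6 and not well above background in fractions 1-3. It was at least 22.3-fold higher (adjusted p 0.00428). Glp2r, a peptide hormone receptor, was at least 12.3-fold higher in the same sense (adjusted p 0.00711), on 1 of its 2 probes only. With slopes in range only, which left fraction 3 alone on that side, the calls of Tbr1, Dlx2 and Glp2r were lost. The difference of Tbr1 was then 5.04, beside 5.64 over all fractions. Dlx2 and Glp2r were not well above background in fraction 3, so no exact difference is given for them. With slide 1 only all 3 genes still passed in limma (adjusted p 0.034, 0.0435 and 0.0223). In fractions 7-10 Tbr1 was between 3.07 and 4.58 and Dlx2 between 1.06 and 3.41.

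By list, 19 of 23 cerebral cortex genes were called higher than in fractions 1-3 and none lower, and 7 of 16 hippocampus genes were called higher. Emx2, a cortical patterning factor, and Lhx2, a LIM factor of the cortex, were among the former. Lhx2 rose by 3.59, from between -0.64 and 0.59 in fractions 1-3 to between 3.15 and 4.16 in fractions 4-6. Among the hippocampus genes, Ccn3, a matrix protein, rose by 3.21 and Wfs1, an endoplasmic reticulum protein, by 1.91. Of the midbrain dopamine list 6 of 20 members were called higher and 1 lower. Slc6a3 rose by 4.82 ± 0.92 (adjusted p 0.0183) and Nr4a2 by 3.12 ± 0.38 (adjusted p 0.00789), and the lower one was En2, an engrailed factor of the midbrain and cerebellum border, which was 1.37, -1.37 and -2.58 in fractions 4-6 and between 1.88 and 3.18 in fractions 1-3. Of the neuropeptide list 2 of 21 members were called higher, Npw and Vip, which is no more than the 13.1% of all tested genes called higher. Of the thalamus list Lef1 was called higher and Zic1, a zinc finger factor that is also abundant in cerebellum, was called lower. Medians over the members were 2.22 for the cortex list, 1.29 for the hippocampus list and 0.69 for the dopamine list. They were 0.95 for the neuropeptide list and 0.57 for the thalamus list, beside 0.14 over all member genes. With normexp the hippocampus list was 0.67 and the dopamine list 0.41, with slopes in range only the dopamine list was 0.46, and with slide 1 only the thalamus list was 0.37.

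The largest negative differences past the threshold were those of Hoxb5, Mybpc3, Hoxa3 and Skor1. Hoxb5, a hindbrain Hox gene, was 4.44, 0.68 and -1.75 in fractions 1-3, -1.82 and -4.54 in fractions 4 and 5 and not well above background in fraction 6. It fell by 5.56 on the log2 scale (SE 1.59, adjusted p 0.042). Skor1, a corepressor of Purkinje cells and hindbrain neurons, was 3.07, 3.52 and 2.98 in fractions 1-3 and 0.82, -2.04 and -2.56 in fractions 4-6, and fell by 4.45 (SE 0.87, adjusted p 0.0187). Fraction 4 lay nearest to the hindbrain side for both. The calls of all 4 genes were lost in some settings, those of Hoxb5 in 11 and of Skor1 in 6 of the settings tried. With slopes in range only the difference was -2.69 for Hoxb5 and -2.33 for Hoxa3 (adjusted p 0.391 and 0.386), while it was -4.24 for Skor1 and -5.10 for Mybpc3 (adjusted p 0.145 and 0.101), beside -5.08 for Mybpc3 over all fractions. Of the myelin list 8 of 14 members were called lower and none higher, beside 6.34% of all tested genes called lower. With slopes in range only no member probe was called lower, and with slide 1 only and slide as a block 3 and 4 were. The median difference of the myelin list was -1.997 over all fractions, -1.83 with slopes in range and -2.08 with slide 1 only, and that of the blood list was -1.30, -1.47 and -1.45. Mobp, a protein of central myelin, was 5.77, 4.21 and 5.17 in fractions 1-3 and 4.21, 1.11 and -0.05 in fractions 4-6. Mbp, a myelin protein too, was not called and was between 2.20 and 2.57 in fractions 1-3 and between 2.66 and 3.06 in fractions 4-6. Of the cerebellum list 7 of 16 members were called lower and 1 higher, and of the blood list 6 of 7 and of the hindbrain Hox list 3 of 6 were called lower. The mean level of the blood list was -0.58 to 0.58 in fractions 4-6, 1.27 to 1.54 in fractions 1-3 and -0.62 to 0.22 in fractions 7-10.

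The number of calls moved with the arrays used. Over all 10 fractions 3877 member probes were called, and of all 22980 tested probes 11.9% were called higher and 6.58% lower. With fractions 1 and 2 left out, 11 member probes were called, all higher, with fraction 3 alone on that side and assumed to vary like the other groups. Among them were probes of Cort, Emx2, Rprml, Nr2e1, Icam5, Tmco5, Izumo1r, Atat1, Rab3b and Zfp932, of which Izumo1r and Zfp932 were not called with all fractions in. Cort, the neuropeptide cortistatin, was then 5.14 higher (adjusted p 0.0328), while Slc6a3 and Nr4a2 no longer passed (adjusted p 0.145 and 0.0896) at differences of 4.38 and 3.14, beside 4.82 and 3.12 over all fractions. With slide as a block 64 probes were called, and with slide 1 alone 72. Without fraction 2 the count was 373. Without fraction 5 the count was 42 probes and without fraction 6 it was 65. The split of 2739 higher and 1138 lower probes (70.6% higher) also moved with the scaling, to 2429 and 1871 (56.5% higher) with each array centred on its median, which shifted the median difference by -0.12.

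**Figure D4:**
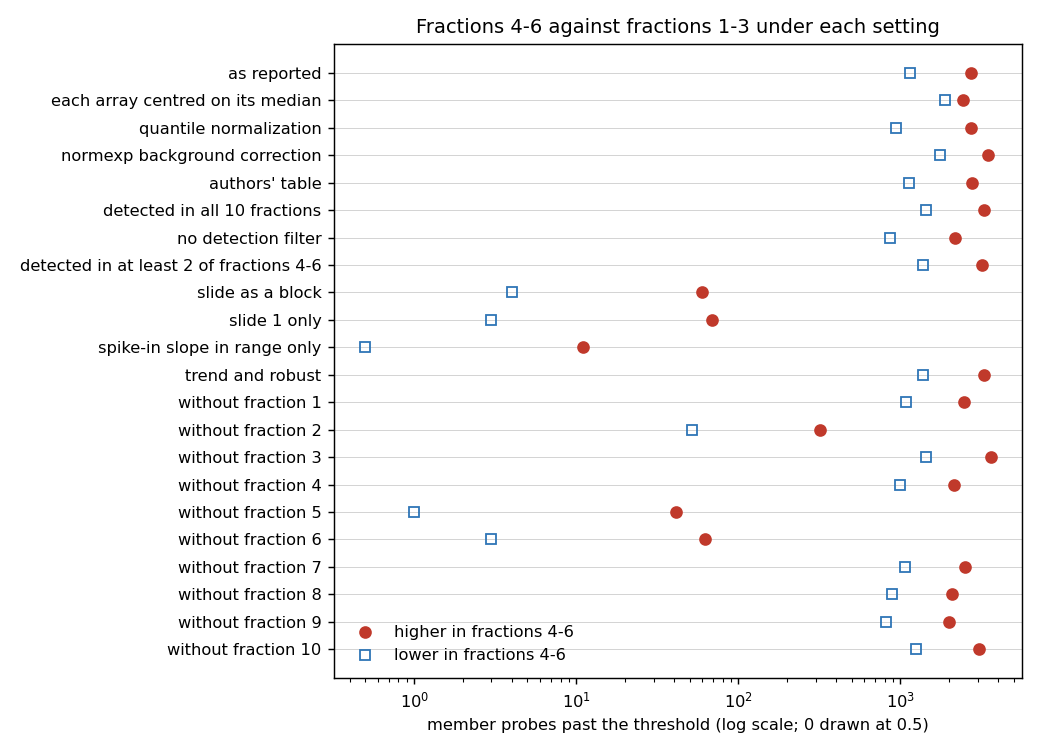
Number of member probes called in fractions 4-6 against fractions 1-3 (horizontal axis, log scale) under each setting (vertical axis), with filled points for higher and open squares for lower, and 0 drawn at 0.5. Slide as a block, slide 1 only, slopes in range only and leaving out fraction 2, 5 or 6 all bring the counts down, from 2739 higher to between 11 and 321.

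Against fractions 7-10 no probe passed the threshold in limma with all 10 fractions. The lowest adjusted p was 0.346, and 918 member genes were higher and 391 lower at an unadjusted p under 0.05, beside 5.58% and 3.13% of all tested genes. Without overlap were 1449 member genes higher and 623 lower, beside 8.75% and 4.78% of all tested genes. Among the member genes with large positive differences without overlap were Foxa1, Pou4f2, Foxb1 and Foxa2. Of fractions 7-10 Foxa1 and Foxb1 were detected in fraction 7 alone and Pou4f2 and Foxa2 in none, so no exact difference is given for them, and their order was not settled. Foxa2 was not well above background in fraction 6 either, so its separation there is one of dim readings. Pou4f2 was at least 8.86-fold and Foxa2 at least 4.21-fold higher (adjusted p 0.380 and 0.377), and the adjusted p of Foxa1 and Foxb1 was 0.346. Among the member genes with large negative differences were Retnla, Sp8, Doc2g and Dlx6os1. Sp8, a factor of olfactory bulb interneurons, was -3.27, -1.31 and -0.64 in fractions 4-6 and 0.30, 1.00, 1.32 and 3.86 in fractions 7-10. Doc2g, a gene of olfactory bulb output neurons, was between -3.59 and -2.88 in fractions 4-6 and 2.84 in fraction 10. Retnla, a resistin-like gene, was between -4.09 and -3.58 in fractions 4-6 and -0.10, 2.34, 0.02 and -1.76 in fractions 7-10.

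With fraction 6 left out, 8 member probes passed against fractions 7-10, while none passed with all fractions in. The 8 were Foxa2 by 2 probes, Slc6a3, Gata3, Pax7, Dmbx1, Tph2 and the keratin gene Krt2. Foxa2, Slc6a3, Gata3, Pax7, Dmbx1 and Tph2 were lower in fraction 6 than in fractions 4 and 5. Leaving out fraction 6 favours such genes, so these calls are a description and not independent evidence. Slc6a3 was 3.96 higher (adjusted p 0.0269), Gata3 was 4.58 higher (adjusted p 0.0269) and Dmbx1, a factor of the midbrain, was 3.21 higher (adjusted p 0.0291). Pax7 was at least 7.58-fold and Tph2 at least 6.47-fold higher over fractions 4 and 5 (adjusted p 0.0291 for both). Against all other fractions together, Foxa2 by 2 probes and Slc6a3 passed when fraction 6 was left out. Slc6a3 was then 4.88 higher (adjusted p 0.00511). Peg3, an imprinted gene, passed against fractions 7-10 when fraction 7 was left out (2.22 higher, adjusted p 0.0385).

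By list, the medians of the midbrain genes lay further above fractions 7-10 than above fractions 1-3. The median difference of the midbrain and tectum list was 2.43 from fractions 7-10 and -0.14 from fractions 1-3, that of the dopamine list 1.61 and 0.69, and that of the serotonin list 1.30 and 0.33. With normexp the tectum list was 1.33 and the serotonin list 0.50 from fractions 7-10, and the serotonin list 0.03 from fractions 1-3. From fractions 1-3 quantile normalization gave 0.13 for the tectum list, with the sign turned, and 0.93 for the serotonin list, and slopes in range only gave -0.66 for the tectum list. The cortex list ran the other way, with -0.16 from fractions 7-10 and 2.22 from fractions 1-3. The olfactory bulb list was -1.59 and the striatum list -0.92 from fractions 7-10, beside 0.06 over all member genes. With slide 1 only the striatum list was -1.58. Ppp1r1b, the DARPP-32 protein of striatal neurons, was 1.04, 0.88 and 2.91 in fractions 4-6 and 5.20, 5.99, 3.99 and 2.76 in fractions 7-10. No list had a call against fractions 7-10 with all fractions in. The median difference from the other 7 fractions was 0.11 for astrocytes, -0.11 for microglia and 0.03 for endothelium, and of these 36 genes 1 was called against fractions 1-3.

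The horizontal and sagittal series, cut from other mice, hold the same markers along other axes. They have 6 fractions each and were not used by the rule. The spike-in slope was out of range on horizontal fractions 1-3 (0.818 to 0.891) and on sagittal fractions 1 and 3 (0.773 and 0.823), and its part in the levels there was not tested. In the horizontal series Slc6a3 was highest in fractions 4 and 5 (1.66 and 1.90) and at most 0.04 in the other 4. Hcrt was 2.93 in horizontal fraction 5 and 1.13 in fraction 6, and at most -0.74 in the other 4. Pmch was 3.18 in fraction 5 and 2.18 in fraction 6. Agrp and Ghrh shared coronal fraction 6 with these peptides, but in the horizontal series they were highest in fraction 6, at 3.35 and 2.56, where Agrp was -2.85 in fraction 5. Hcrt and Pmch, highest in the same coronal slab as Agrp and Ghrh, were thus highest in another horizontal slab. Slc6a4 was highest in horizontal fraction 4, at -0.83. Tph2 stayed between -4.88 and -3.38 in the horizontal series.

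In the sagittal series Slc6a3 was 0.50, 1.51, 0.41 and 0.76 in fractions 2-5, and -2.53 and -0.90 in fractions 1 and 6. Nr4a2 did not follow it, at 3.275 in fraction 1 and between 0.36 and 1.55 in fractions 2-6. Agrp was -1.13 and -0.47 in fractions 3 and 4 and at most -1.30 in the other 4. Ghrh was 0.045 in fraction 4 and -0.64 in fraction 3. Foxa1 was detected in horizontal fractions 4-6 and sagittal fractions 2-5 alone. Of the 714 genes with coronal fractions 4-6 above the other 7, 55.5% were highest in horizontal fraction 5 and 27.7% in fraction 6, beside 24.9% and 24.3% of the member genes. In the sagittal series 37.1% of the 714 were highest in fraction 2, 20.6% in fraction 6 and 17.4% in fraction 3, beside 17.2%, 35.1% and 12.7% of the member genes. With 1 array per fraction, and with sagittal fractions 1 and 6 pooled from more slabs than the others, these shares are descriptions.

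**Figure D5:**
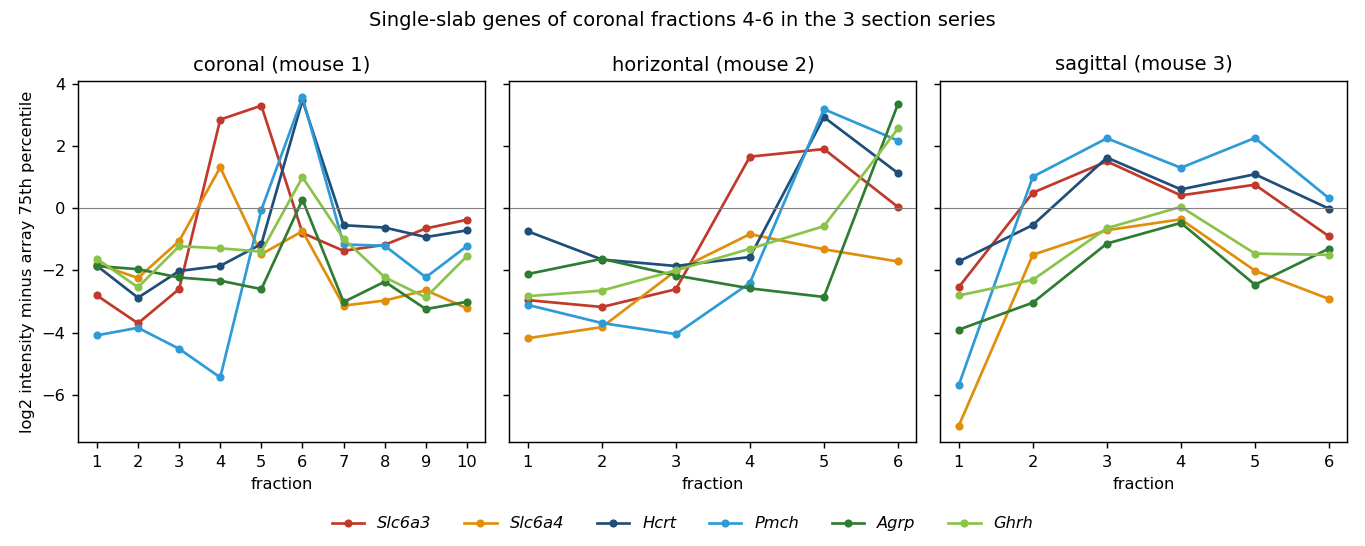
Level (log2 intensity minus the array's 75th percentile, vertical axis) of 6 genes by fraction (horizontal axis) in the coronal, horizontal and sagittal series, each from 1 mouse, with 1 point per array. Hcrt, Pmch, Agrp and Ghrh share coronal fraction 6 as their highest, while in the horizontal series Hcrt and Pmch are highest in fraction 5 and Agrp and Ghrh in fraction 6.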

How the data were processed

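RNA of 22 brain fractions of 3 mice was hybridised to Agilent SurePrint G3 Mouse arrays in 1 colour, designed on mm9. Per the file headers, the authors extracted intensity values with Agilent Feature Extraction 10.10.1.1, which subtracts background. The authors also deposited a log2 table with 47544 rows, and 99.892% of its values over 47519 matched rows lay within 0.02 of the values computed here. From the scanner files, control spots and outlier spots (131 to 187 per coronal array) were left out, no spot was saturated, and spots of 1 probe were averaged. The 75th percentile (intensity 272.6 to 567.8) was subtracted on the log2 scale. RefSeq probes with a value on all 10 coronal arrays (28104) were named through RefSeq accessions (26570 probes, 20137 symbols).

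Probes detected in at least 2 coronal fractions (22980) were fitted with limma 3.58.1 in R 4.3.3, with fractions 1-3, 4-6 and 7-10 as 3 group means and 7 residual degrees of freedom, and p-values were adjusted by Benjamini-Hochberg over all of them at 0.05. The median residual SD was 0.317. Members were probes detected in at least 2 of fractions 4-6. Lists, members and markers were chosen with earlier results of these data known. Named genes were the 6 markers, the 12 highest and 8 lowest differences without overlap, the 6 and 4 furthest from the nearer side, 4 per direction against each side, and members of the lists past the threshold. Genes with the largest step in 1 fraction were chosen after their values were seen. Some genes these rules name are not reported here. A level not well above background on every array of a group gives a bound only. The fit was tested on simulated data.

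Alternatives were median centring, quantile normalization, normexp on the median signal with offset 50 (in place of the mean signal), the authors' table, other detection filters, slide as a block, slide 1 only, slopes in range only, a 2-group fit, trend and robust variances, and each fraction left out. Tables and figures were made with Python 3.11.15, numpy 2.4.6, pandas 2.3.3 and matplotlib 3.10.9. The number of arrays limits the precision.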

Additional observations from a re-analysis of the deposited data

Results flagged for a closer look

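Within the 4 fractions 7-10, a sample far from the other 3 was sought for each of 56 genes with Dixon's ratio at its 95% critical value, and 4 genes had one. Chance alone gives such a sample in about 1 in 20 groups. Fibcd1 was -2.26 in fraction 7, above -3.01 for the next (ratio 0.936), and Hells was -1.96 in fraction 7, above -3.50 for the next (ratio 0.834). Fraction 7 adjoins fractions 4-6. Pde1a was 0.86 in fraction 10, below 1.83 for the next (ratio 0.929). Pmch was -2.22 in fraction 9, below -1.22 for the next (ratio 0.952).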

How the results depend on the processing

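All counts are member probes with an adjusted p under 0.05 in limma. Against the other 7 fractions, 0 became 8 with normexp (among them Cort, Nr4a2 by 2 probes, Lhx2, Crym, St6galnac5 and Slc18a2), and 1 (Cort) with probes detected in all 10 fractions and with trend and robust variances. Against fractions 1-3, 3877 became 64 with slide as a block, 72 with slide 1 only and 11 with slopes in range only. Leaving out 1 fraction at a time gave 0 to 3 calls against the other 7, 42 to 5070 against fractions 1-3, 0 to 8 against fractions 7-10 and 0 to 3 higher than both sides. The cause was not tested. Each of 56 genes was followed in 1 comparison over up to 22 settings, since not every setting gave a value for every gene. Slc6a3 and Nr4a2 were followed against the other 7, and their calls against fractions 1-3 were lost with slopes in range only (adjusted p 0.145 and 0.0896). Of 1190 values, 1144 kept direction and side of the threshold. Of the rest 32 no longer passed, all against fractions 1-3 (Dlx2, Glp2r, Hoxa3, Hoxb5, Mybpc3, Skor1 and Tbr1), 3 passed (Foxa2 and Slc6a3 without fraction 6, and Nr4a2 with normexp) and 11 turned direction. With normexp, Comp was -0.034 and Fev -0.013. Leaving out 1 fraction at a time gave -0.33 to 1.71 for Col20a1, -0.76 to 0.80 for Fev, -0.66 to 1.28 for Gm14151, -0.14 to 2.53 for Hcrt, -0.56 to 1.97 for Misp, -0.15 to 1.39 for Olfr1109, -0.14 to 4.36 for Pmch, -0.12 to 1.66 for T2 and -0.097 to 1.98 for Tmem220. Each of these is high in 1 fraction, and the lowest value is the one without it. Quantile normalization shifted the median of all differences by 0.12 against the other 7 and 0.20 against fractions 1-3. No paired analysis was possible because the groups share no replicate numbers.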
